A study of Rattus norvegicus with 12 samples.

Results

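The genes described here are 9 genes of cortical and basolateral glutamatergic neurons, *Slc17a7*, *Neurod2*, *Neurod6*, *Fezf2*, *Tbr1*, *Sv2b*, *Camk2a*, *Emx1* and *Rorb*, taken by symbol from a table of raw counts of 37209 genes in punches of the rat central nucleus of the amygdala (CeA). All 9 were in the table and all 9 passed the filter on low counts, as did 20944 genes in all. The punches came from wild type male Sprague Dawley rats aged 14 to 16 weeks, with 1 library of poly-A enriched RNA per rat. The 6 chronic intermittent ethanol (CIE) rats breathed ethanol vapor for part of every day over several weeks and were killed when the last vapor session ended. The 6 Control rats breathed air throughout and were killed at the end of the last air session. Rats keep the numbers of their labels, with 1 to 6 for CIE and 7 to 12 for Control. Each punch was cut from a frozen section of 1 randomly chosen hemisphere. Where in the CeA each punch was placed is not given in the labels.

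Glutamatergic projection neurons of the cerebral cortex, the claustrum and the basolateral amygdala fill their synaptic vesicles through the transporter VGLUT1, whereas neurons of the CeA are largely GABAergic. Cortical projection neurons are specified by a cascade of transcription factors in which EMX1 marks the dorsal progenitor zone, NEUROD2 and NEUROD6 act in newly born excitatory neurons, and TBR1, FEZF2 and RORB are linked to particular layers. A punch aimed at the CeA lies close to the basolateral amygdala, the striatum and the piriform region, which differ in their content of these neurons. The comparison asked whether CIE rats and Control rats differed in these genes, and how far punches of the same group differed from each other.

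The markers of CeA and GABAergic neurons named here were present in every library. Their presence does not show whether a punch also held neighbouring tissue. In CPM, the unit of counts scaled to the size of the library with TMM normalization but not to the length of the gene, *Gad1*, an enzyme of GABA synthesis, lay between 535 and 680 CPM in the 12 rats, and *Slc32a1*, the vesicular GABA transporter, between 340 and 521 CPM. The CeA peptide gene *Crh* lay between 3.76 and 9.86 CPM and *Prkcd*, a kinase of lateral CeA neurons, between 22.7 and 46.3 CPM. Total counts ranged from 39082548 (Control rat 11) to 95647601 (Control rat 8).

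Most of the 9 genes varied widely between punches of the same group. Of the 9 genes, 9 had a higher mean CPM in the CIE group, 2 (*Fezf2* and *Neurod2*) had a nominal p value below 0.05, both higher, and 0 passed a false discovery rate (FDR) of 5% in edgeR's quasi-likelihood test. In 0 of the 9 genes did the 6 CIE rats and the 6 Control rats separate without overlap. Over all genes tested 8.31% had a nominal p value below 0.05 (1740 genes, of which 837 were higher in the CIE group), 0.363% passed 5% FDR and 0.893% separated without overlap. A positive log2 fold change was found in 10536 of all genes tested and a negative one in 10408. DESeq2 also gave 2 of the 9 genes at the nominal threshold and limma-voom 7, each with 0 at 5% FDR. Over all 20944 genes tested, DESeq2 gave 1929 at that threshold and limma-voom 3596, against the 1740 of edgeR. Among the genes with counts in every rat, the highest and the lowest punch differed from 1.37-fold in *Rorb* to 337-fold in *Neurod6*.

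Promoter sequences are shown for the 3 genes that varied together most closely across punches and for *Rorb*, which stayed nearly level. An E-box, written CANNTG, is the element that basic helix-loop-helix factors such as NEUROD2 and NEUROD6 bind. The runs are the 250 bases before the annotated start, 5′ to 3′ on the gene's strand, from RefSeq on build GRCr8, with every E-box in capitals. They lie at chr1:104785955-104786204 (plus strand) for *Slc17a7*, chr10:83824278-83824527 (minus) for *Neurod2*, chr4:86180156-86180405 (minus) for *Neurod6* and chr1:225970974-225971223 (minus) for *Rorb*.
Slc17a7: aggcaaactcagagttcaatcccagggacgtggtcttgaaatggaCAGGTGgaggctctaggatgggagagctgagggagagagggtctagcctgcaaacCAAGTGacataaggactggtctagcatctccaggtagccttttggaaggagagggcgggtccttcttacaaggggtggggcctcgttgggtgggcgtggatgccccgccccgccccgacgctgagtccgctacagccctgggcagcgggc
Neurod2: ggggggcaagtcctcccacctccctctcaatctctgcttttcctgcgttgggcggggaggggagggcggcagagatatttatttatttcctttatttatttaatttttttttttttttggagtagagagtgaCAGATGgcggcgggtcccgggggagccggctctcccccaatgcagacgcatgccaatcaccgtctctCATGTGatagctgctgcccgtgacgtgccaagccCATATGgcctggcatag
Neurod6: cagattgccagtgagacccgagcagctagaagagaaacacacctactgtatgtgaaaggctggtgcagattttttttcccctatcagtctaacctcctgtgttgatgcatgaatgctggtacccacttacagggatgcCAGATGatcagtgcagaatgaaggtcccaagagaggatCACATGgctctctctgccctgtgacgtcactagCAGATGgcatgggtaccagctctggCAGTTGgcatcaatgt
Rorb: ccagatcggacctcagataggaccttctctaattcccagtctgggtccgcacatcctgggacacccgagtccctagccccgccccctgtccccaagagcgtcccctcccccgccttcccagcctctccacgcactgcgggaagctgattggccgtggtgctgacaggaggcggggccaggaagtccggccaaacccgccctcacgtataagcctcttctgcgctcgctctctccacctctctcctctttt

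*Slc17a7* held 2 E-boxes in this window, *Neurod2* 3, *Neurod6* 4 and *Rorb* 0. *Fezf2*, which varied between punches, also held 0, so the presence of an E-box did not divide the genes that varied from *Rorb*. All 9 members were matched by symbol, and 7 of them held at least 1 E-box, against 65.5% of 33469 RefSeq promoters of the same length. The form CAGATG (or CATCTG on the other strand), which is contained in the E-box, was present in *Neurod2* once and in *Neurod6* at 2 places, and in 14.0% of all promoters. The T-box half-site AGGTGT, searched on both strands, was present in 3 members (*Sv2b*, *Neurod6* and *Camk2a*) and in 11.6% of all promoters. The ROR half-site AGGTCA, also on both strands, was present in 0 members and in 14.1% of all promoters. These are matches of letters in a short window and do not show that a factor binds there.

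*Slc17a7*, which encodes VGLUT1, varied 95.2-fold between the highest and the lowest punch. In the CIE group it was at 348 CPM in rat 1, 223 CPM in rat 4, 161 CPM in rat 2, 37.2 CPM in rat 6, 6.13 CPM in rat 5 and 5.21 CPM in rat 3. In the Control group it was at 130 CPM in rat 10 and 43.3 CPM in rat 12, and the other rats lay between 3.66 and 6.12 CPM. Both groups thus held rats at low, intermediate and high levels, and they overlapped, with 3 CIE rats above every Control rat. CIE rats averaged 130 ± 139 CPM (SD, n = 6) and Control rats 32.3 ± 50.3 CPM (SD, n = 6). This gave a log2 fold change of 2.01 (nominal p 0.0901, FDR 0.682, with an SE of 1.10), and without Control rat 10 it was 3.34 (nominal p 0.00837, FDR 0.275), whereas without CIE rat 1 it was 1.42 (nominal p 0.223). In punches of bulk tissue, fewer cells of a type and less RNA per cell cannot be told apart.

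*Sv2b* and *Camk2a*, the other synaptic members, had at least 3929 counts in every punch. *Sv2b*, a synaptic vesicle glycoprotein, ranged from 80.9 to 289 CPM with a median of 145 CPM in the CIE group, and from 90.6 to 140 CPM with a median of 99.1 CPM in the Control group. Its 3 highest rats were CIE rats 1, 4 and 2, yet CIE rat 6 was the lowest of all 12. *Sv2b* had a log2 fold change of 0.55 (nominal p 0.0591, FDR 0.622, with an SE of 0.27). Without CIE rat 1 it was 0.30 (nominal p 0.206), and without any 1 of CIE rats 3, 5 and 6 and Control rats 10 and 12 the nominal p value was between 0.0135 and 0.0458. *Camk2a*, the alpha subunit of the calcium/calmodulin-dependent kinase abundant at excitatory synapses, ranged from 393 to 808 CPM (median 547 CPM) in the CIE group and from 286 to 812 CPM (median 431 CPM) in the Control group. Its highest value was that of Control rat 10, and 0 CIE rats lay above every Control rat. The log2 fold change of *Camk2a* was 0.29 (FDR 0.809, with an SE of 0.24). It was 0.52 without Control rat 10 (nominal p 0.0148), 0.16 without CIE rat 2 and 0.19 without Control rat 8. Neurons of the striatum and the CeA also express both genes.

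**Figure D1:**
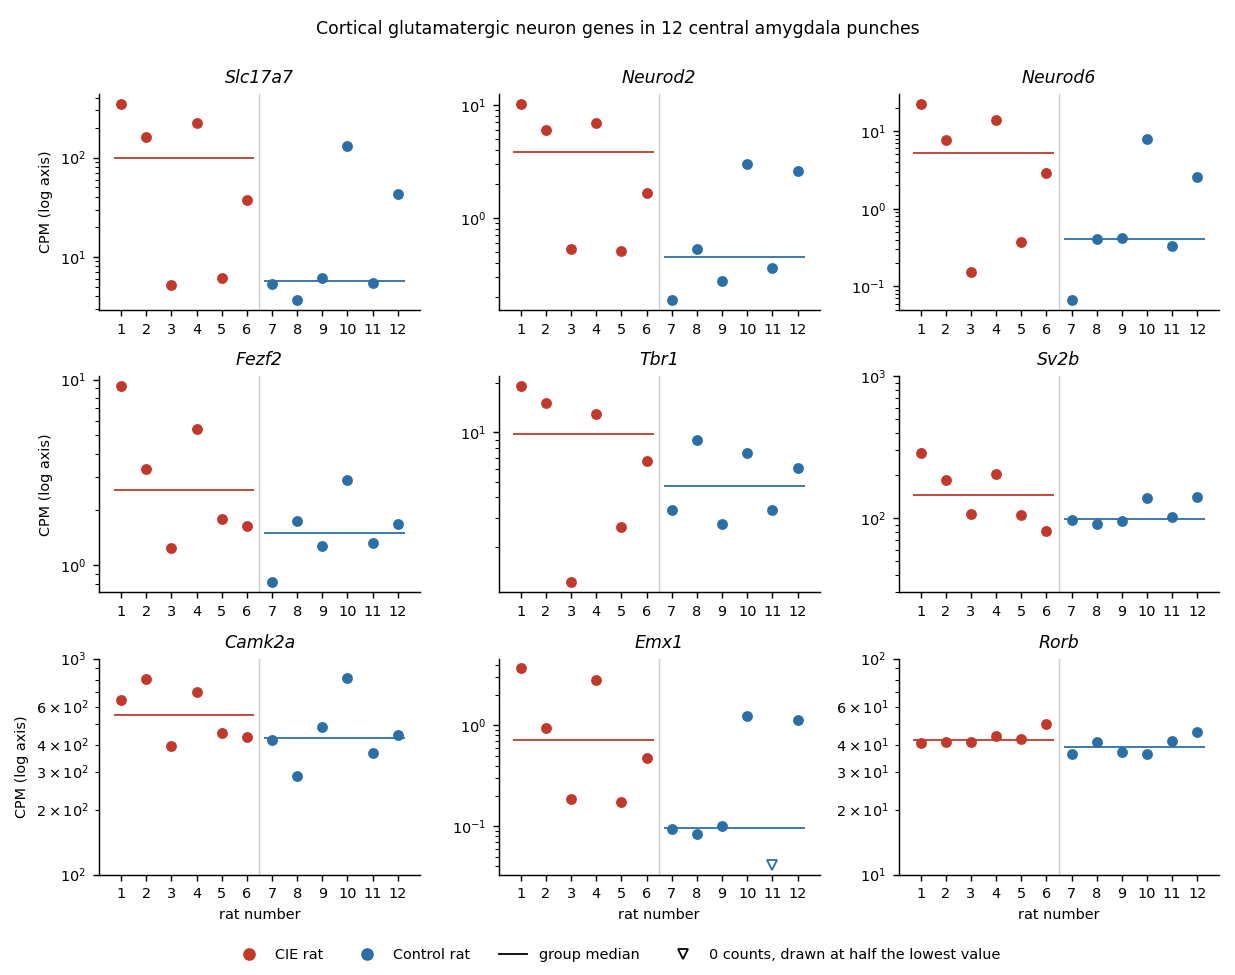
CPM of each of the 9 genes (vertical log axis) by rat number (horizontal axis), with CIE rats in red, Control rats in blue and a line at each group's median. The open triangle is the Emx1 value of 0 counts in Control rat 11. CIE rats 1, 2 and 4 and Control rat 10 stand high in most panels, and Rorb lies between 36.3 and 49.7 CPM in all 12 rats.

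The transcription factors of the excitatory lineage were high in largely the same rats. *Neurod2* ranged from 0.504 to 10.2 CPM (median 3.83 CPM) in the CIE group and from 0.186 to 2.96 CPM (median 0.446 CPM) in the Control group. CIE rats 1, 2 and 4 were above every Control rat, while CIE rats 3 and 5 lay among the Control rats. Its log2 fold change was 1.90 (nominal p 0.0403, FDR 0.575, with an SE of 0.84). The nominal p value rose above 0.05, to between 0.0659 and 0.114, when any 1 of CIE rats 1, 2 and 4 or Control rats 7, 8, 9 and 11 was left out.

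*Neurod6*, which marks postmitotic excitatory neurons of the forebrain, had the widest range of the genes with counts in every rat. It ranged from 0.155 to 22.4 CPM (median 5.21 CPM) in the CIE group and from 0.0665 to 7.98 CPM (median 0.412 CPM) in the Control group. The highest rat was 337-fold above the lowest, which rested on 5 counts in Control rat 7. Control rat 10 stood with the CIE rats that were high. CIE rat 6 (2.85 CPM) and Control rat 12 (2.53 CPM) were intermediate, and CIE rats 3 and 5 lay with the remaining Control rats. Its log2 fold change was 2.01 (nominal p 0.0914, FDR 0.684, with an SE of 1.11), and 3.35 without Control rat 10 (nominal p 0.00932, FDR 0.287). Without CIE rat 1 it was 1.34 (nominal p 0.253), and without CIE rat 3 the nominal p value was 0.0491.

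*Fezf2*, a determinant of subcortically projecting neurons of the deep layers, ranged from 1.24 to 9.21 CPM (median 2.54 CPM) in the CIE group and from 0.811 to 2.88 CPM (median 1.49 CPM) in the Control group. CIE rats 1, 4 and 2 were above every Control rat and the other CIE rats were not. With a log2 fold change of 1.22 (nominal p 0.0204, FDR 0.476, with an SE of 0.47) it had the smallest p value of the 9 genes. Without CIE rat 1 the log2 fold change was 0.72 and the nominal p value 0.0877.

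*Tbr1*, a T-box factor of layer 6 and of early excitatory neurons, ranged from 1.21 to 19.2 CPM (median 9.78 CPM) in the CIE group and from 2.73 to 8.99 CPM (median 4.70 CPM) in the Control group. The highest and the lowest of the 12 rats, rats 1 and 3, were both CIE rats. *Tbr1* had a log2 fold change of 0.85 (nominal p 0.138, FDR 0.739, with an SE of 0.54), 0.53 without CIE rat 1 and 1.08 without CIE rat 3 (nominal p 0.0302). *Emx1*, a homeobox factor of the dorsal telencephalon, ranged from 0.173 to 3.68 CPM (median 0.715 CPM) in the CIE group and from 0 to 1.25 CPM (median 0.0969 CPM) in the Control group. It had 0 counts in Control rat 11, the shallowest library, and the highest rat was at least 47.4-fold above the limit that 3 counts set in that rat. *Emx1* reached the count filter in 6 of 6 CIE rats and 2 of 6 Control rats, and passed it through the CIE rats. Its log2 fold change was 1.62 (nominal p 0.112, FDR 0.709, with an SE of 0.95). It was 1.04 without CIE rat 1 (nominal p 0.306), 2.23 without Control rat 10 (nominal p 0.0438) and 3.11 under limma-voom (nominal p 0.0172).

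*Rorb*, a nuclear receptor known from layer 4 of sensory cortex, was nearly level across punches. It ranged from 40.9 to 49.7 CPM (median 41.9 CPM) in the CIE group and from 36.3 to 45.6 CPM (median 39.0 CPM) in the Control group. CIE rat 6, and not CIE rat 1, was highest, and Control rat 12 came next. These rats also had the highest mean levels of the astrocyte genes described below (0.24 and 0.12). Which cells of a punch the *Rorb* counts came from was not tested. The log2 fold change of *Rorb* was 0.13 (nominal p 0.106, FDR 0.706, with an SE of 0.07), 0.08 without CIE rat 6 and 0.17 without Control rat 12 (nominal p 0.0297).

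The log2 fold changes and their errors are shown together for the 9 genes. The 4 largest, those of *Slc17a7*, *Neurod6*, *Neurod2* and *Emx1*, also had the 4 largest standard errors. The median over the 9 genes was 1.22, beside 0.00 over all genes tested. For each gene the difference of the group means of log2 CPM was also tested by a two-sided exact permutation test over the rats, which gave p values from 0.102 (*Fezf2*) to 0.532 (*Tbr1*), where 6 rats against 6 allow a p as small as 0.00216.

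**Figure D2:**
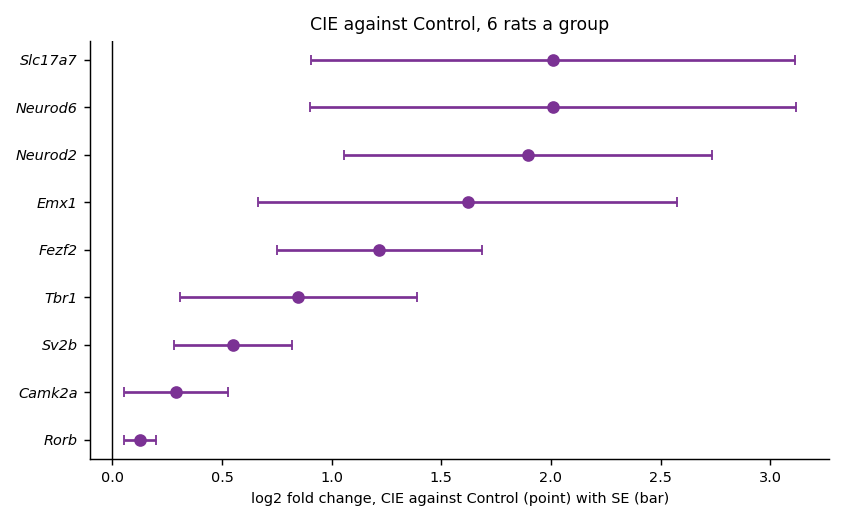
Log2 fold change of CIE against Control (horizontal axis, positive values higher in the CIE group) for each of the 9 genes, with bars of 1 standard error from edgeR's quasi-likelihood fit on 6 rats a group. All 9 points lie above 0, from 0.13 for Rorb to 2.01 for Slc17a7, and the 4 largest values have the 4 widest bars.

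The spread between punches was then measured for every gene tested as the SD of log2 CPM within groups. The median over all genes was 0.23. *Neurod6* had an SD of 2.56 and *Slc17a7* one of 2.39, at percentiles 99.97 and 99.96 of the 20944 genes. *Emx1* (1.98), *Neurod2* (1.76) and *Tbr1* (1.22) were also above the 95th percentile, and *Fezf2* (0.89) was at percentile 94.6. *Sv2b* (0.54) and *Camk2a* (0.47) were at percentiles 82.4 and 77.7. *Rorb*, with an SD of 0.12, was at percentile 17.0. Scarce genes have a larger SD from counting alone, but *Slc17a7* was read from at least 209 counts in every rat. In 6 of the 9 genes the SD was larger in the CIE group, for example 1.11 against 0.59 in *Fezf2* and 1.57 against 0.71 in *Tbr1*. It was larger in the Control group for *Camk2a* (0.50 against 0.43), *Emx1* (2.14 against 1.80) and *Rorb* (0.13 against 0.11).

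**Figure D3:**
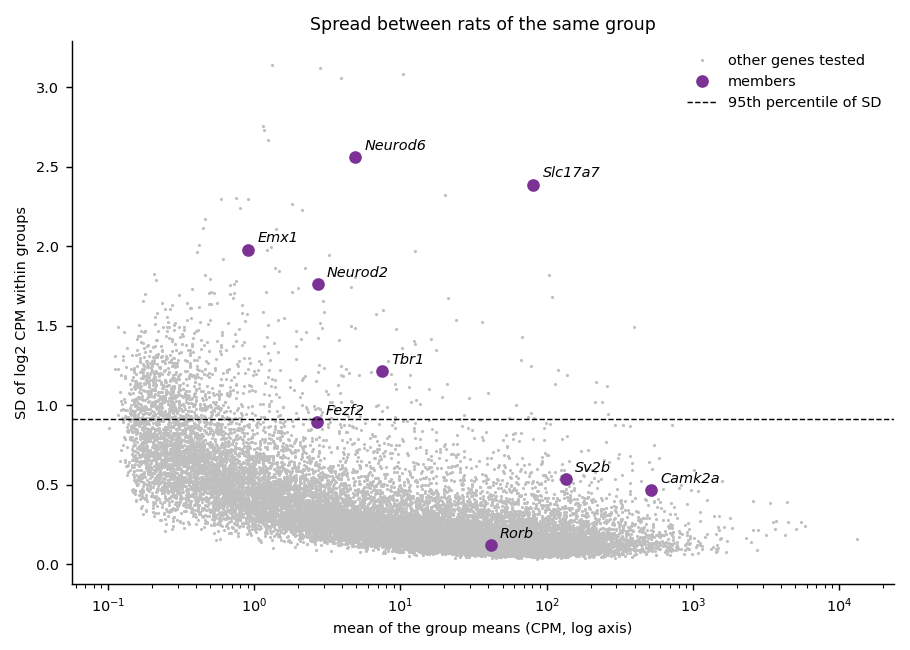
SD of log2 CPM within groups (vertical axis) against the mean of the 2 group means (CPM, horizontal log axis) for all 20944 genes tested, with the 9 members in purple and a dashed line at the 95th percentile of SD. Neurod6, Slc17a7, Emx1, Neurod2 and Tbr1 lie above the line, while Rorb, with an SD of 0.12, lies below the median SD of all genes, 0.23.

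The same punches were high in most of the genes. CIE rat 4 was among the 3 highest rats in 9 of the 9 genes, CIE rat 1 in 7 and CIE rat 2 in 6. Control rat 10 was among the 6 highest in 8 genes. In contrast, Control rat 7 was among the 6 lowest in 9 genes and Control rats 9 and 11 in 8 each. To place each rat on a single scale, the mean over the 9 genes of log2 CPM relative to the gene's 12-rat mean was taken and is called the member level. It was 2.16, 1.72, 1.33 and 0.19 in CIE rats 1, 4, 2 and 6 and -0.86 and -1.21 in CIE rats 5 and 3. In the Control group it was 1.03 and 0.46 in rats 10 and 12 and between -1.48 and -0.93 in the others. The group means differed by 1.11, with an SD of 1.40 among the CIE rats and 1.04 among the Control rats, so the difference was smaller than the pooled SD of 1.23. No test is attached to this value.

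The proportions of the members to each other within a punch were also compared. For each 1000 counts of *Slc17a7* there were 61.6 counts of *Neurod6* as a median over the 12 rats, and 10 of the 12 rats lay within 2-fold of it, with a range from 12.6 in Control rat 7 to 111 in Control rat 8. *Neurod2* had a median of 44.7 counts per 1000, a range from 22.8 in Control rat 10 to 145 in Control rat 8 and also 10 rats within 2-fold. The proportion of *Fezf2* changed from 20.7 in CIE rat 2 to 474 in Control rat 8, and that of *Tbr1* from 55.0 in CIE rat 1 to 2455 in Control rat 8. *Fezf2* and *Tbr1* therefore had counts in punches with little *Slc17a7* beyond what a fixed proportion would give. For *Rorb* the proportion went from 117 in CIE rat 1 to 11171 in Control rat 8.

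**Figure D4:**
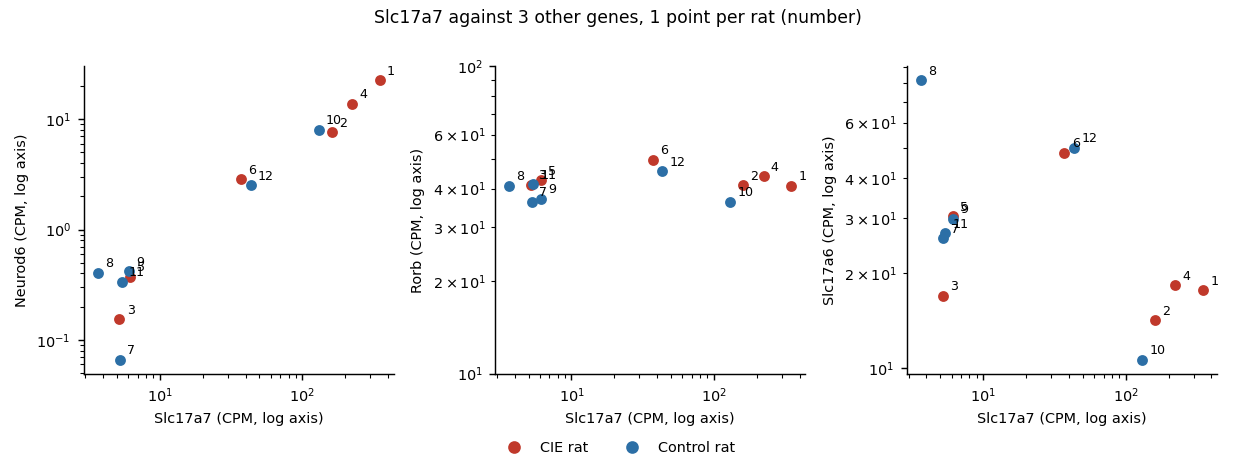
Slc17a7 (CPM, horizontal log axis) against Neurod6, Rorb and Slc17a6 (CPM, vertical log axes), with 1 numbered point per rat, CIE in red and Control in blue. Neurod6 rises with Slc17a7, and Rorb stays between 36.3 and 49.7 CPM. Slc17a6 is highest, at 81.7 CPM, in the rat with the least Slc17a7, followed by rats 12 and 6 at intermediate Slc17a7.

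Other genes of forebrain glutamatergic neurons shared part of the pattern. Of 16 further telencephalic glutamatergic genes 14 were tested and 13 had a positive log2 fold change, with a median of 0.28. Of these genes 2 had a nominal p value below 0.05 and 0 passed 5% FDR. The 14 genes of striatal projection neurons described below also had 13 positive values, with a median of 0.26. *Rspo2*, a Wnt agonist known from basolateral amygdala neurons, had a log2 fold change of 1.74 (nominal p 0.0121, FDR 0.403, with an SE of 0.60). It was at 27.5, 21.0 and 11.4 CPM in CIE rats 1, 4 and 2, at 7.83 CPM in Control rat 10 and between 1.94 and 4.05 CPM in the other rats. *Slc30a3*, which loads zinc into glutamatergic vesicles, had a log2 fold change of 1.23 (nominal p 0.0226, FDR 0.494, with an SE of 0.48) and reached 43.0 CPM in CIE rat 1. *Cux2*, a factor of the upper layers, was at 35.8 to 62.7 CPM and was highest in Control rat 12, its log2 fold change being 0.28 (nominal p 0.0898, FDR 0.682).

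Of 10 genes of the deep layers and the claustrum 9 were tested, with a median log2 fold change of 0.41, 2 at a nominal p value below 0.05, both higher, and 0 at 5% FDR. *Ctgf*, a matrix protein that marks the deepest cortical layer and is also made by vascular and meningeal cells, had a log2 fold change of 1.31 (nominal p 0.00160, FDR 0.166, with an SE of 0.34). It was at 31.0 CPM in CIE rat 2, 16.0 CPM in CIE rat 4 and between 6.82 and 9.43 CPM in the other CIE rats. The Control rats lay between 3.97 and 8.47 CPM. CIE rats 3 (9.43 CPM) and 6 (8.68 CPM), with lower member levels, were thus also above every Control rat. *Ntng2*, a netrin-related adhesion protein of claustral and cortical neurons, had one of 0.75 (nominal p 0.0312, FDR 0.543, with an SE of 0.31) and was highest in CIE rats 1, 2 and 4. *Gnb4*, also known from the claustrum, had one of -0.30 (nominal p 0.0585, FDR 0.622).

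Close relatives of the members were set beside them. Of 15 paralogs 12 were tested, 6 with positive and 6 with negative log2 fold changes, a median of -0.02 and 0 at a nominal p value below 0.05. *Slc17a6*, which encodes the VGLUT2 of thalamic, hypothalamic and medial amygdala neurons, ranged from 14.2 to 48.2 CPM in CIE rats and from 10.7 to 81.7 CPM in Control rats. Control rat 8 had the most *Slc17a6* and the least *Slc17a7*, whereas Control rat 10 had the least *Slc17a6*. Control rat 12 (50.0 CPM) and CIE rat 6 (48.2 CPM), intermediate in *Slc17a7*, came next in *Slc17a6*. CIE rat 3, low in *Slc17a7*, and CIE rat 1, the highest in it, had similar *Slc17a6* (17.0 and 17.7 CPM). The log2 fold change of *Slc17a6* was -0.63 (nominal p 0.155, FDR 0.752, with an SE of 0.42). *Fezf1*, the hypothalamic relative of *Fezf2*, was at most at 2.69 CPM and had a log2 fold change of -1.53 (FDR 0.732, with an SE of 0.96). *Rora*, the relative of *Rorb*, was at 26.7 to 37.9 CPM, with a log2 fold change of 0.11 (FDR 0.805). In the list of subcortical glutamatergic genes, 6 of 7 were tested, all with negative log2 fold changes (median -0.53) and 0 at a nominal p value below 0.05. Of these, *Tcf7l2* and *Sim1* had log2 fold changes of -0.44 (FDR 0.695) and -1.01 (FDR 0.715).

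Markers of neighbouring structures were set beside the member level in each punch. The striatal projection neuron genes also spread widely, with 12 of 14 above the 95th percentile of SD, as did 3 of the 6 subcortical glutamatergic genes and 5 of the 14 further telencephalic ones. Their mean level was 2.01 in CIE rat 2, 0.95 in CIE rat 4 and 2.14 in Control rat 10, and ranged from -1.34 to 0.07 in the other 9 rats. CIE rat 1, with the highest member level, had a striatal level of -0.31. *Ppp1r1b*, the dopamine-regulated phosphoprotein of striatal neurons, was at 1454, 1259 and 527 CPM in Control rat 10 and CIE rats 2 and 4, and at 227 CPM in CIE rat 1. Between the groups 0 of the 14 striatal genes had a nominal p value below 0.05 (median log2 fold change 0.26), and *Rarb*, *Gpr6* and *Foxp1*, with the smallest p values, had log2 fold changes of 0.29, 0.49 and 0.25 at FDR values of 0.916 to 0.932. Whether the amount of neighbouring tissue in a punch accounts for the values of the members was not tested.

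**Figure D5:**
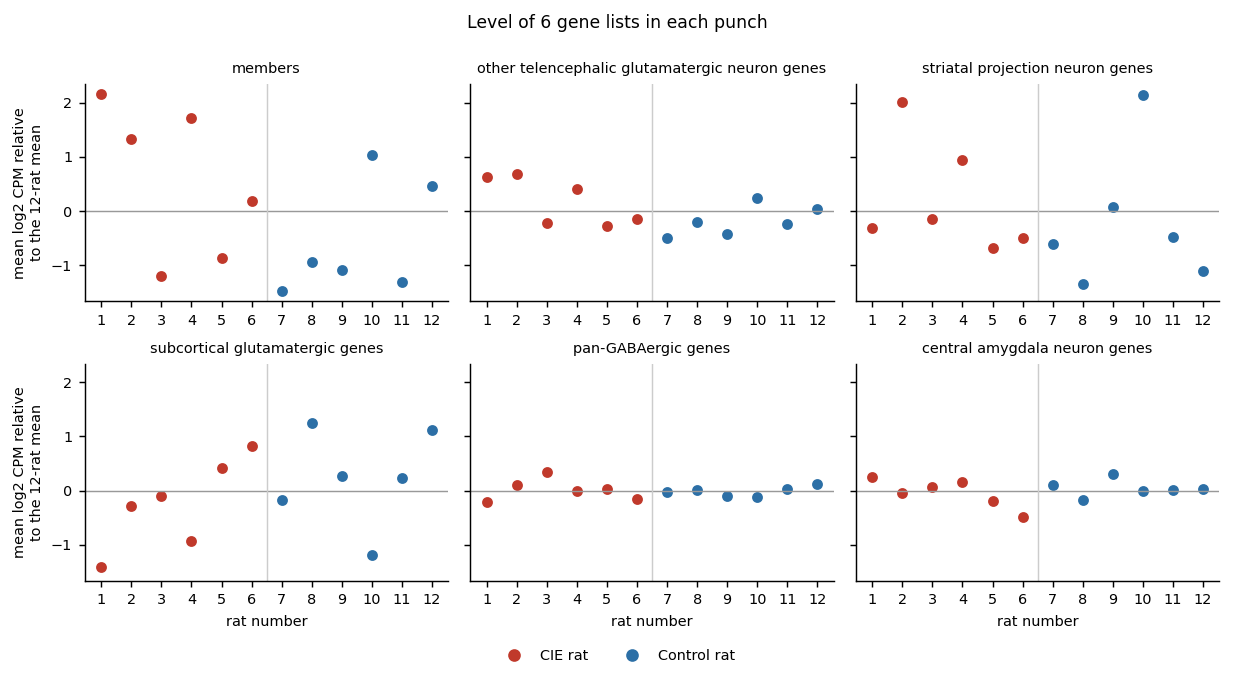
Mean log2 CPM relative to the 12-rat mean (vertical axis) of 6 gene lists by rat number (horizontal axis), with CIE rats in red and Control rats in blue. The members span 3.64 on this scale and the striatal genes 3.48, against 0.80 for central amygdala neuron genes and 0.56 for pan-GABAergic genes.

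The lists that stand for the labelled tissue spanned less than the members when averaged. The mean level of 12 tested CeA neuron genes spanned 0.80 on the log2 scale and that of 8 pan-GABAergic genes 0.56, beside 3.64 for the members. In such a mean, genes that go opposite ways cancel, and single genes of both lists had a median SD of 0.38 and 0.28, above the 0.23 of all genes. Of the 13 CeA genes *Tac2* had no row under that symbol. *Crh* and the peptide gene *Nts* had nominal p values of 0.0193 and 0.0437 with lower values in CIE rats (log2 fold changes -0.45 and -0.46, FDR 0.472 and 0.584), and 0 of the CeA genes passed 5% FDR. The median was -0.05 over the CeA genes, with *Isl1* at -0.27 (FDR 0.744), and 0.02 over the GABAergic genes, with *Slc32a1* at -0.16 (FDR 0.701) and 0 at a nominal p value below 0.05. General neuron genes spanned 0.25 between punches, with 1 of 8 lower at a nominal p value below 0.05 (*Tubb3*, log2 fold change -0.20, FDR 0.573).

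The myelin list was highest in Control rat 8, the microglia list in Control rat 9 and the astrocyte list in CIE rat 6. The endothelial list was highest in Control rat 10, which also had a high member level (1.03). Of 9 oligodendrocyte genes of myelin 8 had lower values in CIE rats at a nominal p value below 0.05, with a median log2 fold change of -0.59 and 0 at 5% FDR, and their mean level ranged from -0.88 (CIE rat 3) to 0.42 (CIE rat 6) in the CIE group and from -0.23 to 0.64 in the Control group. Of 8 endothelial genes 5 were lower (median -0.27), of which *Kdr*, a VEGF receptor, passed 5% FDR (log2 fold change -0.92, SE 0.14, FDR 0.0116). Of 8 astrocyte genes 2 were higher and 1 lower (median 0.02), and of 8 microglia genes 1 was lower (median -0.10), all at a nominal p value below 0.05 with 0 at 5% FDR. The part of these cell types in the values of the 9 genes was not tested.

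The genes whose pattern over the 12 rats was most like the member level were found by Pearson's r of log2 CPM with the group means removed, among 13290 other genes with a mean of at least 5 CPM. The rats with high and low member levels stood apart, so that r mostly ranks how well a gene separates them, and the genes share libraries with the members. Hence r is a description here and has no p value. The median r over these genes was 0.04, and 147 genes (1.11%) had an r of at least 0.8. The 6 highest among genes with a standard symbol were *Gfy* (0.97), *Mlip* (0.97), *Epha7* (0.96), *Fam189a1* (0.96), *Galnt14* (0.93) and *St6gal2* (0.92). *Gfy*, which encodes Golgi-localized goofy, ranged from 1.05 CPM in Control rat 8 to 81.0 CPM in CIE rat 1, with 35.9 CPM in Control rat 10. *Epha7*, an ephrin receptor, ranged from 24.7 to 51.2 CPM, and its lowest r when any 1 rat was left out was 0.95. Among the most opposed genes were *Dolpp1* (-0.90), *Prosc* (-0.90) and *Ptdss2* (-0.88). Of the members themselves *Neurod2*, *Slc17a7* and *Neurod6* had an r of 0.98, which their part in the level raises, and *Rorb* had one of 0.01. Of 19 telencephalic and deep layer genes from the lists above that were at this mean level, 2 (*Ntng2* and *Rspo2*) had an r of at least 0.8. The 19 ranged from -0.14 (*Nptx1*) to 0.89 (*Ntng2*). None of these 9 named genes outside the lists passed 5% FDR between the groups, with *Galnt14* (log2 fold change 0.46, nominal p 0.0297, FDR 0.533) the lowest in p.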

How the data were processed

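Per the labels and the methods of the study, the authors aligned paired reads of poly-A enriched RNA with BWA (reference Rnor_6.0), and HTSeq gave the counts per gene. Versions, gene annotation, strand and overlap settings of the counting are not given in the sources used here, so reads of overlapping or antisense genes could not be told apart. The deposited counts are raw, with 1 column per rat. Titles of all 12 samples end in CIE, and the treatment field set the groups. The numbers 1 to 12 do not pair rats. In the re-analysis, edgeR 4.0.16 in R 4.3.3 compared CIE with Control (filterByExpr, TMM, quasi-likelihood F test, two-sided, no covariates), with Benjamini-Hochberg FDR over 20944 genes. SE was obtained by dividing the absolute log2 fold change by the root of F. Log2 CPM used a prior count of 2. Alternatives used DESeq2 1.42.0 and limma 3.58.1 (voom with sample quality weights). On simulated counts with 200 genes changed by 1 on the log2 scale, edgeR recovered 130 and called 6 unchanged genes. DESeq2 recovered 145 and called 27 unchanged genes, and limma-voom recovered 130 and called 8. The changed genes were drawn at random from all genes tested, most of which vary less between rats than most members. Descriptions and figures used Python 3.11.15 with matplotlib 3.10.9, pandas 2.3.3, scipy 1.17.1 and numpy 2.4.6.

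The members and all 13 gene lists were chosen with earlier results of these data known. Genes named outside the members are the up to 3 with the smallest p of each list where a result turns on them, *Gad1*, *Prkcd* and *Ppp1r1b* as markers chosen for their role, and the 6 most alike and 4 most opposed genes, of which 1 is not reported here. *Bhlhe22*, *Nr4a2*, *Slc17a8*, *Otp* and *Lhx9* were picked after their values were seen. The values of *Fezf1*, *Tcf7l2*, *Sim1* and *Slc17a6* in the closing paragraph were picked in the same way. p values set the difference between the groups against the spread between rats. Promoters came from RefSeq (GRCr8), not the build of the counts, and were matched by symbol. Protein sequences, qRT-PCR and sIPSC recordings were not used here.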

Additional observations from a re-analysis of the deposited data

Results flagged for a closer look

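Within the groups, 20 sets of 6 values (CPM of the 9 genes and the member level, in each group) were examined for a rat far from the others, by Dixon's ratio of the gap to the range with a critical value of 0.625. For normally distributed values this flags about 1 in 20 sets by chance. That rate need not hold for CPM with a long upper tail. The sets are also not independent, since the members other than *Rorb* varied together. Dixon's ratio flagged 3 values. Control rat 10 lay far above the other Control rats in *Slc17a7* (130 CPM, ratio 0.686) and in *Neurod6* (7.98 CPM, ratio 0.689). CIE rat 6 lay above the other CIE rats in *Rorb* (49.7 CPM, ratio 0.664). The CIE values of *Slc17a7* and *Neurod6* were spread over their whole range and gave no such flag.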

How the results depend on the processing

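All 9 genes kept a positive log2 fold change in each of 160 refitted values (6 alternatives and the removal of each rat, with *Neurod6* and *Emx1* not tested when at least 10 counts were required in every rat), and 0 members passed 5% FDR in any refit. In 134 of the 160 the side of the nominal threshold was also kept. These values are not independent, since the refits share rats and the members other than *Rorb* varied together. All 28 pairs of those members had a Pearson's r above 0.5 with the group means removed. The number of members at a nominal p value below 0.05 was 2, moved to 7 under limma-voom with sample quality weights, and ranged from 0 (without CIE rat 1) to 7 (without Control rat 10) when a rat was left out. It was 5 without CIE rat 3, 4 without Control rat 12, and 1 without any 1 of CIE rats 2 and 4 and Control rats 7, 8, 9 and 11. Over all genes, 1740 had a nominal p value below 0.05, against 3596 under limma-voom and 1347 to 2811 without 1 rat (2811 without CIE rat 3), and 76 passed 5% FDR, against 273 under DESeq2, 234 under limma-voom and 34 to 154 without 1 rat (154 without CIE rat 6, and 34 to 49 without any 1 of CIE rats 1, 2 and 4 and Control rats 8, 9 and 11). The causes were not tested. With library size only, 60.3% of the genes at the nominal threshold had higher values in CIE rats, and with TMM 48.1%. The difference in the member level ranged from 0.79 to 1.46 without 1 rat, the genes with an r of at least 0.8 from 109 to 406 (147 with all rats, 406 without Control rat 12, 313 without Control rat 7, 291 without CIE rat 1, 223 without Control rat 9 and 221 without CIE rat 6), and the members above the 95th percentile of SD from 5 to 6. Added after the data were seen were all alternatives for the members at 5% FDR, the removals of a rat for the spread and the overlap of the groups, and the other scalings for the spread. Under limma-voom *Slc17a7* had a log2 fold change of 3.28, *Neurod6* one of 3.33 and *Camk2a* one of 0.51. Depth limits *Emx1* and *Neurod6*, read from 12 counts or fewer in some rats.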

Other observations

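A few listed genes were picked after their values were seen, some of which stood out in a single punch. *Bhlhe22*, a basic helix-loop-helix factor of cortical neurons, was at 23.4 CPM in CIE rat 1 and between 1.07 and 5.06 CPM in the other 11 rats. *Nr4a2*, a nuclear receptor of the claustrum and the deepest cortical layer, was at 39.3 CPM in CIE rat 2 and between 7.34 and 12.8 CPM in the other rats. The punches with the highest member level, CIE rats 1, 4 and 2, thus differed from each other in these genes. In Control rat 8, where *Tbr1* was at 8.99 CPM while *Slc17a7* was at 3.66 CPM, *Slc17a6* (81.7 CPM), *Fezf1* (2.69 CPM) and *Tcf7l2* (40.6 CPM) were at their highest of the 12 rats.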
